A study of Mus musculus with 12 samples.

Results

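The regions described here are stretches of open chromatin listed in 3 of 4 populations of mouse intestinal epithelial cells, namely Sox9 Sublow, Sox9 Low and Sox9 High, and not listed in Sox9 Negative. They were chosen by merging the peaks (intervals of accessible DNA) of the 4 population lists wherever they overlapped by 1 bp or touched, and keeping merged regions with a peak of the Sublow, Low and High lists and none of the Negative list. This gave 6167 of 82365 merged regions, which is 7.49% (exact Clopper-Pearson 95% interval 7.31 to 7.67%). The presence of peaks chose these regions, so their presence pattern is a description and not a finding. The Negative list was the shortest of the 4. With the lists thinned at random to its length, the count was 3506 regions (4.46% of the regions in that setting), and with only the widest peaks of each list 1842 (5.37%).

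Chromatin was profiled by Omni-ATAC-seq, in which the Tn5 transposase inserts sequencing adapters into accessible DNA. The cells came from C57BL/6 mice and carried a Sox9EGFP reporter, and they were sorted by reporter level into Sox9 Negative, Sox9 Sublow, Sox9 Low and Sox9 High, with 3 libraries (replicates A to C) in each population. Each library's label gives 12000 cells per population and does not say if that is the number for 1 library. The labels give no age, treatment or further allele, do not say whether the libraries came from separate animals, and name the cells only as intestinal epithelial cells, so each population is a reporter gate that can hold more than 1 cell type. The 3 libraries of a population were deposited as 1 consensus list on mm9, and the list lengths were 45461 peaks for Negative, 52113 for Sublow, 58356 for Low and 54395 for High.

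Sox9 is a transcription factor of the intestinal crypt, where stem cells at the base divide and their progeny move up towards the villus as they mature. Studies with this reporter have described Negative cells as mostly mature, for example absorptive enterocytes, Sublow cells as dividing progenitors, Low cells as rich in stem cells of the crypt base, and High cells as rich in enteroendocrine and other secretory types. Promoters are commonly accessible in all cell types of a tissue, while distal enhancers are more often accessible in some cell types and not in others. Genes, promoters, motifs and DNA sequences at these regions were not analysed here, since an mm9 annotation or genome was not used, so the populations' identity was not checked against marker genes and the regions are named by position.

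No value below has a replicate error, because the lists hold no read count, score or value per library, and no test across replicates was run. Sequencing depth is unknown, and a region absent from the Negative list may have been accessible at a level too low to be listed. Fewer cells with an open region and less accessibility per cell cannot be told apart in these sorted bulk samples. The intervals given are exact binomial intervals for shares and exact order-statistic intervals for medians, they treat regions as independent, and they cover counting error only.

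By the rule each of the 3 lists held all 6167 regions, so their share of a list depended only on its number of regions. They made up 11.9% of the Sublow regions (11.6 to 12.2%), 10.7% of the Low regions (10.5 to 10.98%) and 11.5% of the High regions (11.2 to 11.8%). They held 2.24 Mb of peak sequence in Sublow, 2.80 Mb in Low and 2.39 Mb in High, which was 7.83%, 9.27% and 9.20% of the bases of those lists. The share of regions was largest in Sublow because that list had the fewest regions, 51751 against 57486 in Low and 53627 in High. The share of bases, which also depends on peak width, was smallest in Sublow. The merged regions spanned 3.19 Mb in all.

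Among regions open in Sublow, Low and High together, a missing Negative peak was a minority state. Of 33461 such regions, 6167 lacked Negative, which is 18.4% (18.0 to 18.9%). The matching count at the other end of the reporter range was 7350 regions that lacked High among 34644 held by Negative, Sublow and Low, which is 21.2% (20.8 to 21.7%). Both counts use the 27294 regions of all 4 lists in the denominator and are not independent. Over all merged regions, whatever their other lists, 46.1% had no Negative peak.

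The regions missing from Negative were narrower than those open in every population. Their median width was 474 bp (466 to 479), against 743 bp (738 to 748) for regions of all 4 lists, and 455 bp (450 to 461) for regions missing from High only. They ran in width between 162 and 2097 bp, with quartiles at 351 and 631 bp. A width of at least 500 bp was reached by 2755 of them (44.7%), against 80.4% of regions of all 4 lists, and at least 1000 bp by 245 (3.97%), against 25.5%. A merged region spans the peaks of all its lists, so its width also depends on how many lists were merged.

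Peaks of the single lists, whose widths do not depend on merging, were also narrower. In the 5998 regions with exactly 1 peak in each of the 3 lists, the median Sublow peak was 312 bp wide (307 to 318), against 658 bp in regions of all 4 lists. The median Low peak was 406 bp (401 to 412), against 643 bp, and the median High peak was 334 bp (329 to 340), against 565 bp. The gap to the common regions was largest for Sublow peaks. Narrow peaks were shared with other classes that lack a list. Regions missing from High only had medians of 399 bp for Sublow and 344 bp for Low, regions of Sublow and Low only 267 and 317 bp, and regions of Low and High only 236 bp for Low and 341 bp for High. The interquartile range was 221 to 450 bp in Sublow, 295 to 550 bp in Low and 225 to 480 bp in High, so the widths of the 3 lists overlapped broadly.

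**Figure D1:**
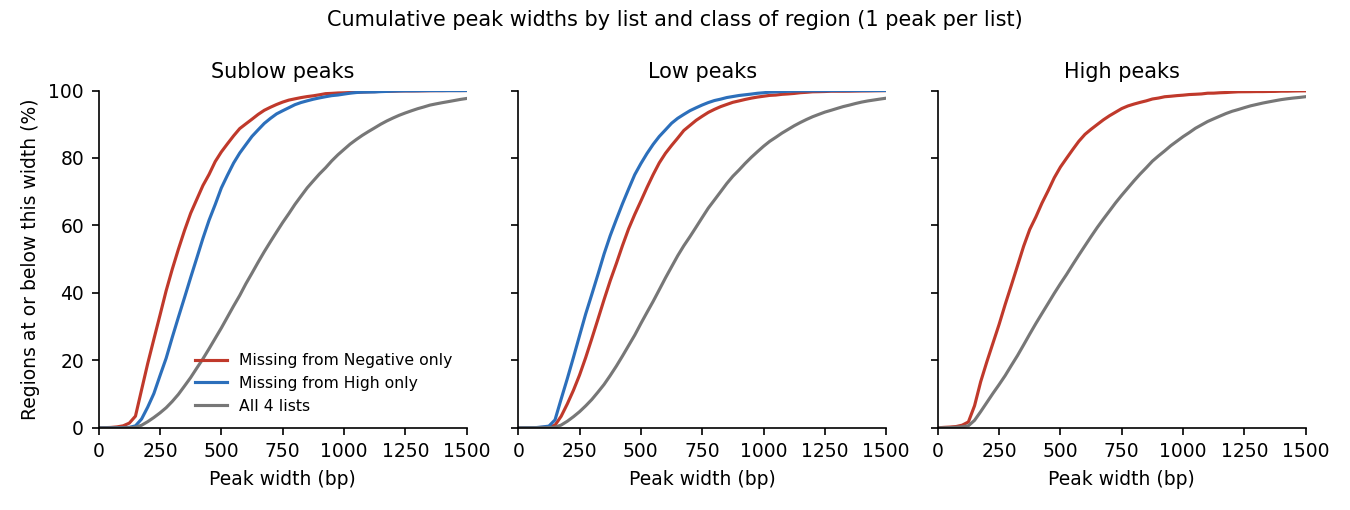
Cumulative share of regions (y axis, %) at or below each peak width (x axis, bp) for Sublow, Low and High peaks, in regions missing from Negative only (red), missing from High only (blue, no High panel) and held by all 4 lists (grey), each with 1 peak per list. The red lines lie left of the grey ones in every panel, with medians of 312, 406 and 334 bp in Sublow, Low and High against 658, 643 and 565 bp.

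Low peaks were usually the widest of the 3. The Low peak was wider than both others in 3250 of the 5998 regions (54.2%), the High peak in 1885 (31.4%) and the Sublow peak in 817 (13.6%). In regions of all 4 lists the order among the same 3 lists was another, with Low widest in 34.4%, High in 20.1% and Sublow in 44.2%. Regions missing from High only also had the middle of their 3 lists widest most often, with Sublow widest in 47.3% of 7165 regions, Negative in 25.9% and Low in 26.1%. The Sublow peak was the narrowest in 2849 of the regions missing from Negative (47.5%), against 18.7% of the regions of all 4 lists. The High peak was the narrowest in 2546 (42.4%), against 61.3%.

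Along the reporter range, peak width followed the order Sublow, Low, High more often in the regions missing from Negative than in the common ones. Widths ascended in that order in 1502 regions (25.04%) and descended in 621 (10.4%). In regions of all 4 lists, 10.5% ascended and 34.3% descended. The median log2 ratio of Low to Sublow width was 0.26 (0.25 to 0.28), a ratio of 1.20, and Low was wider in 4774 of the 5998 regions (79.6%). The corresponding log2 ratio in regions of all 4 lists was -0.01. High peaks were narrower than Low peaks in both classes, with median log2 ratios of High to Low of -0.19 (-0.21 to -0.17) and -0.11 (-0.12 to -0.11).

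Sublow and High peaks were close in width. The median log2 ratio of High to Sublow was 0.06 (0.04 to 0.08), with High wider in 3232 regions (53.9%), against a ratio of -0.13 and 28.3% in regions of all 4 lists. With only the widest 22730 peaks of each list the value was -0.052, so the direction between High and Sublow turned with that choice.

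The difference from the common regions was also seen at like widths of the Low peak. For Low peaks of 200 to under 300 bp, the median Sublow peak was 214 bp and the median High peak 252 bp in 1159 regions missing from Negative, against 281 and 247 bp in 1646 regions of all 4 lists. For Low peaks of 400 to under 500 bp the medians were 349 bp in Sublow and 361 bp in High, against 461 and 388 bp. For Low peaks of 600 to under 800 bp they were 553 and 536 bp, against 701 and 626 bp. The Sublow median was lower than in the common regions in each of the 8 width classes, while the High median was slightly above it for Low peaks of 200 to under 300 bp and below it in the 7 others. The share with the High peak wider than the Sublow peak lay between 47.5% and 61.1% over the 8 classes in regions missing from Negative, and between 25.2% and 41.3% in regions of all 4 lists.

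Whether a region lacked a Negative peak went with the width of its Low peak. Among regions held by Sublow, Low and High with 1 Low peak, Negative was missing from 46.0% of the 903 with a Low peak under 200 bp (42.7 to 49.3%). The share was 34.5% of 3890 regions at 300 to under 400 bp, 19.6% of 4350 at 500 to under 600 bp and 11.9% of 6879 at 600 to under 800 bp. It was 2.74% of the 5006 regions with a Low peak of 1000 bp or more (2.303 to 3.227%), which were 137 regions. Width is the only measure of peak size in the lists, and the part that sensitivity of the Negative list has in these absences was not tested.

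The shares for regions missing from High depended more steeply on the width of the Low peak. Low is next to High in the reporter order but not next to Negative, so the binning list is not placed alike for both. The part that this choice has in the comparison was not tested. High was missing from 67.9% of 1521 regions with a Low peak under 200 bp (65.5 to 70.3%), among those held by Negative, Sublow and Low. It was missing from 17.2% of 4223 regions at 500 to under 600 bp and from 1.22% of 4929 regions at 1000 bp or more (0.930 to 1.56%). Below 500 bp the share missing from Negative was the lower of the pair, and from 500 bp upwards it was the higher. At 400 to under 500 bp the shares were 25.5% missing from Negative and 26.9% missing from High, with intervals that overlapped. At 1000 bp or more, 137 regions lacked Negative and 60 lacked High.

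**Figure D2:**
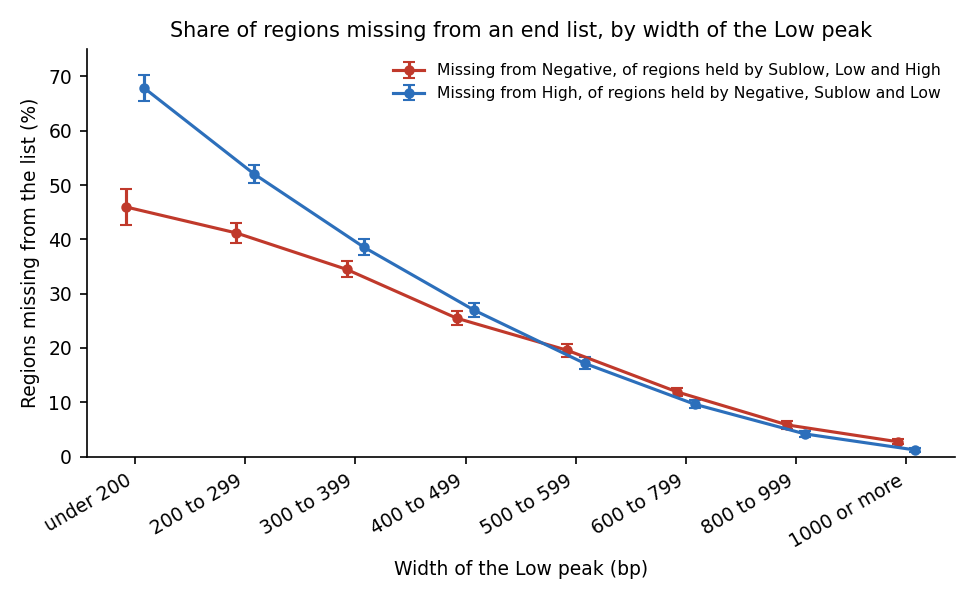
Share of regions missing from an end list (y axis, %) by width of the Low peak (x axis, classes in bp), for Negative among regions held by Sublow, Low and High (red) and for High among regions held by Negative, Sublow and Low (blue). Bars are exact 95% intervals for counting error. The red points run from 46.0% in the narrowest class to 2.74% in the widest and the blue ones from 67.9% to 1.22%, and the lines cross at about 500 bp. Low is next to High in the reporter order and not next to Negative.

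Within a region the 3 peaks mostly lay on the same stretch of DNA. Peaks were merged only where they overlapped or touched, so the rule itself favours bases in common, and their share is a description. In 5956 of the 5998 regions with 1 peak per list (99.3%), all 3 peaks had bases in common, with a median of 238 common bases and a median of 57.5% of the merged region. The centres of the Sublow and Low peaks lay 26.5 bp apart at the median, and those of the High and Low peaks 34 bp apart. In regions of all 4 lists these distances were 20.5 and 31 bp. The Sublow peak lay wholly inside the Low peak in 3633 regions (60.6%) and the High peak in 2843 (47.4%). At the median, the Sublow peak covered 80.9% of the Low peak and the High peak 82.9%, against 98.0% and 90.1% in regions of all 4 lists.

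A smaller group was wide in all 3 lists. There were 564 regions with at least 500 bp in each of Sublow, Low and High (9.40% of the 5998), against 52.7% of regions of all 4 lists, and 29 with at least 1000 bp in each. At the other end, 134 regions (2.23%) were under 200 bp in each list.

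The 5 widest regions with 1 peak per list were the following. The widest lay on chromosome 6 from 39821407 to 39823503, spanned 2097 bp, and owed this width to High, whose peak was 2097 bp against 748 bp in Low and 79 bp in Sublow. The second lay on chromosome 10 from 94406256 to 94408339, with Sublow, Low and High peaks of 1418, 1631 and 2084 bp. On chromosome 12 from 56699921 to 56701613, the 3 peaks were alike, at Sublow, Low and High peaks of 1665, 1417 and 1671 bp. The remaining pair was also broad in all 3 lists. That on chromosome 3 from 86723312 to 86724916 had Sublow, Low and High peaks of 1310, 1586 and 1450 bp. That on chromosome 1 from 3660846 to 3662445 had Sublow, Low and High peaks of 1357, 1483 and 1534 bp. The nearest Negative peak to these 5 regions lay between 38265 and 155382 bp away.

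Few regions were dominated by a single list. The Low peak was at least 2 times as wide as both others in 125 of the 5998 regions (2.08%), the High peak in 101 (1.68%) and the Sublow peak in 14 (0.233%). Among 25643 regions of all 4 lists, the same shares were 0.0663% for Low, 0.339% for High and 0.261% for Sublow. Dominance by Low or High was thus rare but more frequent than in the common regions, while dominance by Sublow was about as rare in both. For Low, the widest of the 125 regions lay on chromosome 14 from 118872714 to 118873888, with 1175 bp in Low against 199 bp in Sublow and 147 bp in High. Next came chromosome 2 from 27741453 to 27742621, with 1169 bp in Low, and chromosome 1 from 151768761 to 151769906, with 1136 bp in Low. For High, after the region on chromosome 6 given above, they were chromosome 18 from 35974454 to 35975920, with 1467 bp in High, and chromosome 7 from 52898741 to 52899823, with 1083 bp in High. For Sublow they were chromosome 11 from 42939490 to 42940246 (757 bp in Sublow, 266 bp in Low, 221 bp in High), chromosome 7 from 86992536 to 86993227 (692 bp in Sublow) and chromosome 6 from 91655728 to 91656371 (644 bp in Sublow).

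Few regions lay at the edge of the rule by a short distance to a Negative peak or a very small Negative overlap. The region with the nearest Negative peak lay on chromosome 3 from 107398046 to 107398659, with 62 bp between it and that peak. The next lay on chromosome 4 from 133926701 to 133927693, at 98 bp, and on chromosome 16 from 18628627 to 18628930, at 123 bp. Only 19 regions (0.308%) had a Negative peak within 200 bp. Just outside the rule, a region on chromosome 11 from 6505473 to 6506259 was counted as common to all 4 lists by a Negative peak of 1 bp. Regions on chromosome 2 from 19475491 to 19476102 and on chromosome 4 from 147448812 to 147449706 each had 9 bp of Negative peak inside peaks of the other lists. Of the 27294 regions of all 4 lists, 27 had Negative peaks over less than 10% of their width.

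Most regions missing from Negative were not at the flank of a Negative peak. Their median distance to the nearest Negative peak was 11370 bp (10919 to 11880), with quartiles at 4656 and 33390 bp. It was 3661 bp where a shared peak needed a reciprocal overlap of 50% with the Low peak, a setting that also admits regions with a smaller Negative overlap, and 24664 bp with the widest peaks of each list. Only 454 (7.36%, 6.72 to 8.04%) lay within 1000 bp, and 554 (8.98%) lay at least 100 kb away. Regions of other patterns without Negative gave medians of 7909 bp for Sublow and Low only, 17349 bp for Low and High only, 11235 bp for Low alone and 16714 bp for High alone. The lowest medians were 6176 bp for Sublow alone and 7503.5 bp for the 284 regions of Sublow and High only. The regions missing from Negative only thus lay between those of Sublow and Low only and those of Low and High only. Of the 454 near a Negative peak, the nearest Negative peak belonged to a region of all 4 lists in 279 (61.5%), and regions of all 4 lists were 61.5% of all Negative regions.

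**Figure D3:**
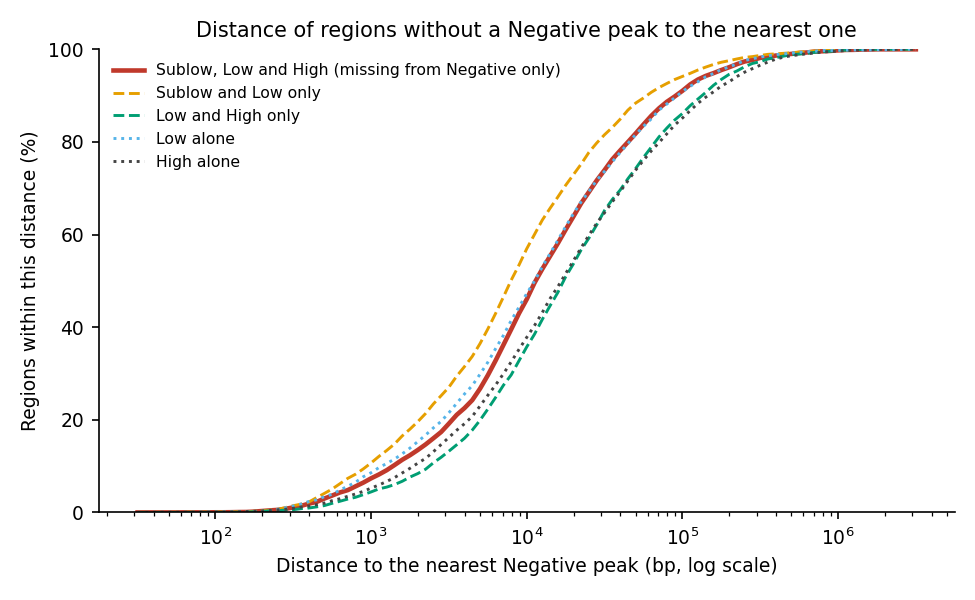
Cumulative share of regions (y axis, %) within a given distance of the nearest Negative peak (x axis, bp, log scale), for regions held by Sublow, Low and High and missing from Negative only (red) and for other patterns without a Negative peak. The red line, with a median of 11370 bp, lies between Sublow and Low only (7909 bp) and Low and High only (17349 bp) and close to Low alone (11235 bp). Sublow alone and Sublow and High only, with the lowest medians, are not drawn.

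Regions farther from Negative peaks had wider peaks, most of all in Low and High. Within 1000 bp of a Negative peak, 446 regions with 1 peak per list had median widths of 287.5, 345.5 and 302.5 bp for Sublow, Low and High. At 100 kb or more, 534 regions had medians of 344, 484 and 408 bp. The 2 distance classes between them had medians between these values in each list.

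The surroundings of these regions also held fewer Negative peaks. Each region itself was left out of these counts. Of the other regions with their centre within 50 kb of one missing from Negative, 51.8% had a Negative peak. This share was 62.4% around regions of all 4 lists, 64.2% around regions missing from High only and 59.0% around all merged regions. The median number of regions within 50 kb was 7, as around all merged regions. It was 8 around regions of all 4 lists and around regions missing from High only. No other region with a Negative peak had its centre within 50 kb for 1133 of the 6167 regions (18.4%), against 6.72% of the regions of all 4 lists and 12.8% of all merged regions. The rule chose these regions by a missing Negative peak, so this comparison is a description.

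Regions missing from Negative lay next to each other more often than their share of all regions. In the order of merged regions along each chromosome, 1298 of 12328 neighbouring places (10.5%, 9.99 to 11.1%) were of the same kind, against 7.49% of all regions. Each pair of the same kind was counted from both sides, so the intervals of these shares are too narrow even for counting error. At 2 places away the share was 8.59% (8.10 to 9.09%), and from 3 to 10 places it lay between 7.54% and 8.58%. Regions missing from High only had 13.4% (12.8 to 13.9%) of the same kind at 1 place, against their share of 8.92%. Neighbours with other patterns without Negative were also above their share of all regions, such as Low and High only at 7.25% against 5.98%, and High alone at 19.3% against 16.6%. Neighbours held by Negative alone were at 4.50% against 6.82%. In all, 55.7% of neighbours had no Negative peak, against 46.1% of all regions.

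**Figure D4:**
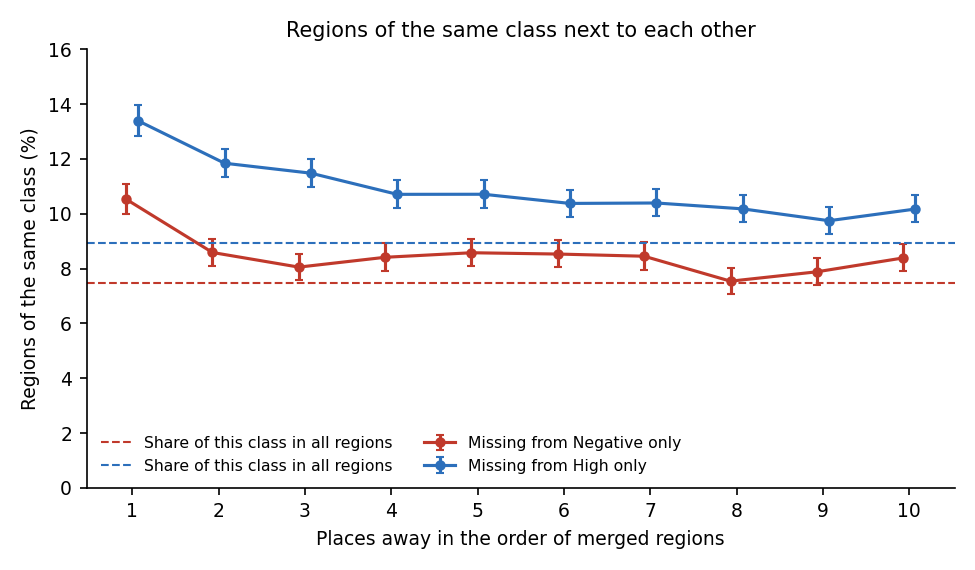
Share of regions of the same class (y axis, %) at 1 to 10 places away in the order of merged regions (x axis), for regions missing from Negative only (red) and from High only (blue). Bars are exact 95% intervals, too narrow for counting error since each pair of the same class was counted from both sides. Dashed lines give each class's share of all regions, 7.49% and 8.92%. The first place stands out for the red points, at 10.5%.

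The distances between these regions were long all the same. The median distance to the next region of the same kind was 59178 bp, and 871 (14.1%) had another within 10 kb. Regions missing from High only, which are more numerous, had a median of 31808 bp. The nearest region of all 4 lists lay 16428 bp away at the median, against 9696 bp for regions missing from High only.

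Most of these regions stood alone among their neighbours. There were 4932 single regions (79.97%), and 1235 (20.03%) stood in 586 runs of 2 or more, of which 531 were pairs and 48 were runs of 3. Median widths inside runs were 315, 409 and 342 bp for Sublow, Low and High, against 312, 406 and 332 bp in single regions, differences that are small beside the interquartile ranges given above.

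The longest run had 5 regions on chromosome 2 from 158033627 to 158084798, over 51.2 kb. Its middle region, from 158054490 to 158055244, had Sublow, Low and High peaks of 681, 704 and 717 bp, and its narrowest, from 158084570 to 158084798, had 202, 224 and 150 bp in the same lists. Runs of 4 were found at 6 places and are all given here, since they tie for length. They lay on chromosome 11 from 44375052 to 44430821, chromosome 1 from 39449145 to 39487437, chromosome 5 from 149519668 to 149551088, chromosome 3 from 9497212 to 9523774, chromosome 11 from 112696492 to 112717828 and chromosome 8 from 111278496 to 111289040.

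These runs of 4 differed in spacing and width. That on chromosome 8 packed 4 regions into 10.5 kb, with Low peaks of 375 to 740 bp, and the nearest Negative peaks lay 11.1 kb before and 122 kb after it. The second run on chromosome 11 spanned 21.3 kb and held the widest Sublow peak of the 7 runs, 844 bp, in the region from 112696492 to 112697364, where the Low peak was 873 bp and the High peak 649 bp. Sox9 itself lies on chromosome 11, and its distance from these runs was not analysed here. The first run on chromosome 11 began with a region whose Sublow, Low and High peaks were 219, 911 and 1232 bp wide, and no Negative peak was listed for 1135 kb after it. The run on chromosome 3 had 247 kb without a Negative peak before it and 49.9 kb after it.

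The windows of 100 kb with the most of these regions held 6 each, in 4 windows. Of 15363 windows with any merged region, 4633 held at least 1 of these regions and 262 held 3 or more. On chromosome 8 from 111200001 to 111300000, 6 of 14 regions were of this kind, and 5 had a Negative peak. On chromosome 16 from 96000001 to 96100000 there were also 6 of 14, and Negative held 6 of the others. On chromosome 15 from 58800001 to 58900000 there were 6 of 16, and Negative held 2. On chromosome 4 from 137200001 to 137300000 there were 6 of 18, and Negative held 3. Another 6 windows tied at 5. On chromosome 4 these were the window from 62800001 to 62900000 (5 of 12 regions, none with a Negative peak) and that from 140200001 to 140300000 (5 of 12, with Negative in 2). The others were chromosome 11 from 112700001 to 112800000 (5 of 12, Negative in 2), chromosome 11 from 88200001 to 88300000 (5 of 14, Negative in 1), chromosome 2 from 158000001 to 158100000 (5 of 13, Negative in 4) and chromosome 8 from 125200001 to 125300000 (5 of 15, Negative in 4).

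Some of these regions lay together between 2 successive Negative peaks, where by the rule each of them must lie unless it is at a chromosome end. There were 206 such stretches with 3 or more of them, 705 regions in all (11.4% of the 6167), and 12 stretches with 5 or more. Over the whole series, these regions were 16.2% of all merged regions without a Negative peak, which is another measure and no background for the 11.4%. The 3 stretches below were picked for their number of these regions. The richest was on chromosome 5 from 75773643 to 76569009, where 9 such regions lay within 795 kb. That stretch held 30 regions in total, with Sublow in 12, Low in 19 and High in 24, and 10 of them were held by High alone. The broadest of the 9, from 75970537 to 75972076, had Sublow, Low and High peaks of 1349, 1495 and 1458 bp. The Low peaks of the other 8 ranged from 197 to 669 bp.

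The next stretches held 7 each. On chromosome 4 from 62713537 to 63071229, 358 kb without a Negative peak, they were 7 of 28 regions, and the broadest, from 62832378 to 62833772, had Sublow, Low and High peaks of 819, 1395 and 1043 bp. Low and High only held another 8 regions there, and Sublow and Low only 6. On chromosome 16 from 45379009 to 45644137, 265 kb, they were 7 of 16 regions. The broadest there, from 45608425 to 45609665, had Sublow, Low and High peaks of 1199, 1169 and 782 bp. Sublow held 12, 13 and 10 regions in the stretches on chromosomes 5, 4 and 16, and High held 24, 21 and 12.

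**Figure D5:**
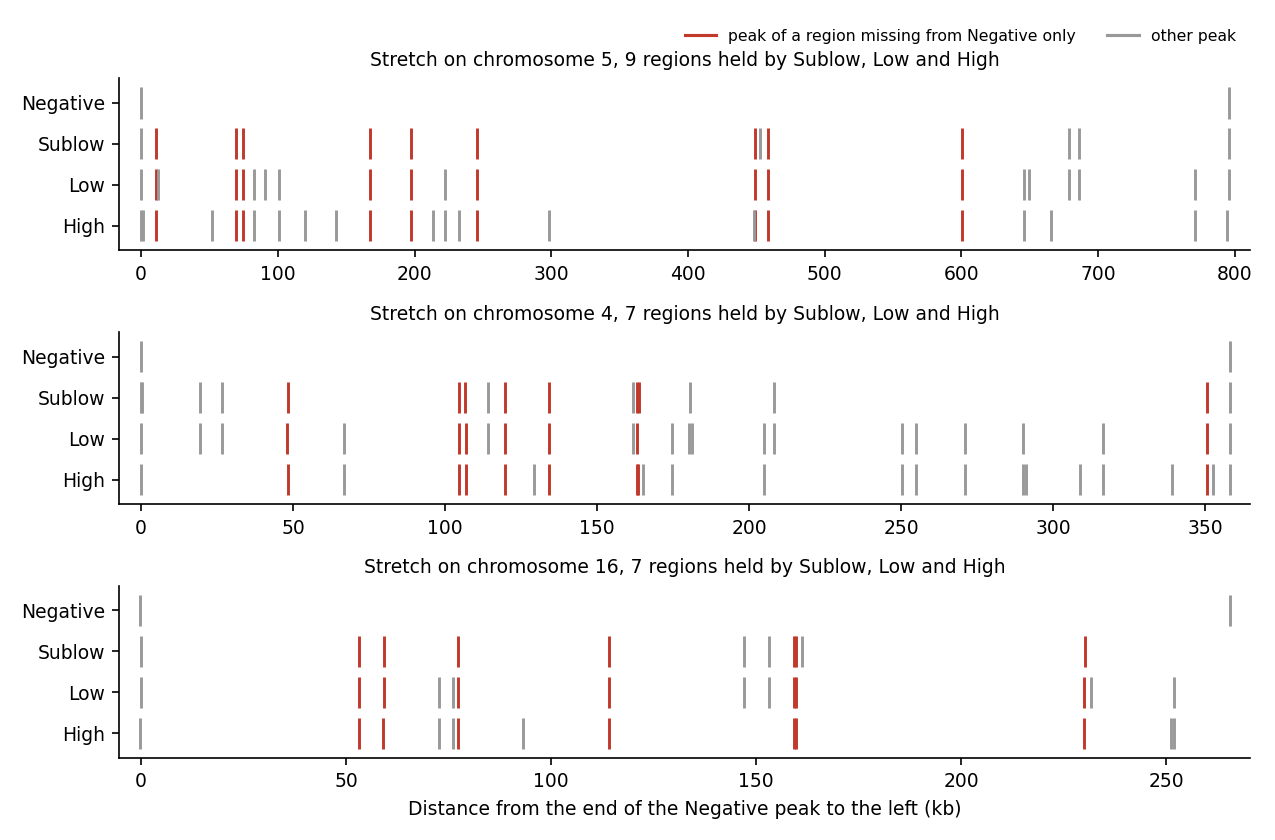
Peaks of the 4 lists (rows) in the 3 stretches without a Negative peak that held the most regions missing from Negative only, by distance from the Negative peak at the left end (x axis, kb), with each peak drawn as a line at its centre. Red lines are peaks of regions held by Sublow, Low and High, 9 on chromosome 5 and 7 each on chromosomes 4 and 16, grey lines are other peaks, and Negative peaks stand at the ends only.

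The regions were spread over all autosomes and the X chromosome at similar shares. They made up between 6.46% of the merged regions on chromosome 3 (5.73 to 7.26%) and 8.20% on chromosome 15 (7.29 to 9.17%), with 7.41% on X (6.18 to 8.81%) and 7.49% overall. Chromosome 3 was the only autosome whose interval excluded the overall share, which is 1 of 19 intervals of 95%. On Y it was 0 of 25 merged regions, for which the exact interval reaches 13.7%. Of regions held by Sublow, Low and High, the share without Negative was lowest on chromosome 19 at 16.03% (13.9 to 18.3%) and highest on chromosome 1 at 19.9% (18.2 to 21.7%). The intervals of chromosome 19 and of chromosome 11 (16.3%, 14.9 to 17.8%) lay below the overall 18.4%, which is 2 of 19 autosomes. On X it was 19.4% (16.4 to 22.8%). Regions missing from High varied more between chromosomes, from 17.6% on chromosome 17 to 25.2% on chromosome 14 among the autosomes, and 27.0% on X.

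Peak widths of the regions missing from Negative varied little between chromosomes. The median Low peak ran from 372 bp on chromosome 16 to 440 bp on chromosome 13, the median Sublow peak from 296.5 bp on chromosome 16 to 329 bp on chromosome 9, and the median High peak from 298.5 bp on chromosome 19 to 365 bp on chromosome 12. The Low median was above both others on each of the 20 chromosomes.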

How the data were processed

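Per the submitters' processing notes, the authors worked on mm9 and used MACS2 2.1.2, Bowtie2 2.3.4, deepTools 2.5.2, Trim Galore 0.4.3 and Picard 2.10.3. Roles and settings of these tools, any Tn5 shift and the way libraries were combined are not given in the sources used here. What the authors deposited is 1 consensus list per population, holding positions in bp only, each made from 3 libraries of that population. Positions were read as counted from 1 with the end included, since each list has a peak whose start equals its end. Peaks that overlapped by 1 bp or touched were merged, and widths, distances between edges, neighbours and windows on a fixed grid of 100 kb were computed with Python 3.11.15, numpy 2.4.6, pandas 2.3.3 and scipy 1.17.1 (figures with matplotlib 3.10.9). Medians of peak widths used regions with 1 peak in each list. The code was tested on simulated data. Intervals are 95% and exact. Regions were named by rank of width, contact with a Negative peak, width against the other lists, members per window, run or stretch between Negative peaks. The members, lists and rules were chosen with earlier results of these data known. The 8 alternatives are given in the closing section. Gene lists could not be used without an mm9 annotation.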

Additional observations from a re-analysis of the deposited data

How the results depend on the processing

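No paired analysis was possible because the lists pool the libraries of a population, which also meant that no replicate could be left out. Alternatives for genes and motifs were not run, as an mm9 annotation or genome was not used here. Of 111 values under 8 alternatives, 70 stayed within 1.5-fold (counts) or inside their interval, 40 moved past it and 1 changed sign. With the widest 22730 peaks of each list, there were 1842 regions, median widths of 670, 716.5 and 650.5 bp for Sublow, Low and High, a log2 ratio of High to Sublow of -0.052, a distance to Negative of 24664 bp, 7.77% of neighbours of the same kind (against 5.37% of all regions in that setting) and 2.77% of regions on X. These lists hold fewer and wider peaks by construction. Random thinning to 45461 peaks (mean of 20 draws) gave 3506 regions and 6.32% of neighbours of the same kind, against 4.46% of all regions, and it removes shared peaks by construction. A reciprocal overlap of 50% with the Low peak gave 6968 regions, with medians of 388, 451 and 401 bp for Sublow, Low and High. The log2 ratio was 0.021 and the distance 3661 bp in that setting. That setting also admits regions whose Negative overlap is under 50%. An overlap counts as no distance, so these regions lower the median distance by construction. The cause of the wider peaks was not tested. Peaks of at least 200 bp gave 375 bp in Sublow, 456 bp in Low, 388 bp in High and a distance of 13315 bp. The distance was 12173 bp when peaks up to 500 bp apart were merged and 13219 bp when a Negative peak within 1000 bp also removed a region. With depth unknown, a closed region and one that the Negative list missed look the same here.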

Other observations

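In 42 of the 5998 regions with 1 peak per list (0.700%), no base was common to the Sublow, Low and High peaks, so these regions were joined through a chain of overlaps. Another 169 of the 6167 regions had more than 1 peak in at least 1 list. The peak was split in High only in 56 regions, in Low only in 47 and in Sublow only in 41. The narrowest peaks inside regions with 1 peak per list were 14, 22 and 1 bp for Sublow, Low and High.

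Some regions joined a list by a very narrow peak. The Sublow peak was at least 2 times narrower than each of the others in 326 regions (5.44%), the High peak in 433 (7.22%) and the Low peak in 20 (0.333%). An example chosen after its values were seen lies in the stretch on chromosome 5, from 76231636 to 76232234, with a Sublow peak of 54 bp, a Low peak of 470 bp and a High peak of 599 bp. In regions of all 4 lists the same was true of 0.226% for Sublow, 7.36% for High and 0.203% for Low.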
